A study of Mus musculus with 14 samples.

Results

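The genes described here are 10 core genes of the Notch pathway, the receptors Notch1, Notch2, Notch3 and Notch4, the ligands Jag1, Jag2, Dll1 and Dll4, and the target genes Hes1 and Hey1. They were taken by symbol from both deposited count tables, which hold 17702 genes for the Lats2 experiment and 17763 for the Lats1 experiment, and all 10 were found in both. Expression was measured by RNA-seq in 14 mammary tumors. The paper states that the tumors of the Lats2 experiment came from different mice, and does not say so for those of the Lats1 experiment. The Lats2 experiment compared 4 Lats2-CKO PyMT tumors (3 carcinomas and 1 adenoma) with 3 WT-PyMT tumors (1 carcinoma and 2 adenomas), and the Lats1 experiment compared 4 Lats1-CKO PyMT tumors (2 carcinomas, 1 adenoma and 1 adenosquamous carcinoma) with 3 WT-PyMT tumors (1 carcinoma and 2 adenomas). All mice carried PyMT, the polyoma middle T oncogene driven by the MMTV promoter, and were about 3 months old. In CKO mice, MMTV-driven Cre removed exon 5 of Lats2 or exon 4 of Lats1 in the mammary gland. WT-PyMT mice were littermates without the deletion. LATS1 and LATS2 are the Hippo pathway kinases that restrain the transcriptional cofactors YAP and TAZ.

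Notch receptors are single-pass membrane proteins. A Jagged or Delta-like ligand on a neighboring cell pulls on the receptor, which exposes it to ADAM and γ-secretase cleavage and frees its intracellular domain. That domain enters the nucleus and turns the DNA-binding protein RBPJ from a repressor into an activator of genes such as Hes1 and Hey1, which encode transcriptional repressors. In the mammary gland, Notch signaling favors luminal over basal cell fate, and Notch4 and Dll4 are best known from endothelium.

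Lats1 and Lats2 were read first, as a check of the labels. Lats1 stood between 32.9 and 38.3 CPM (read counts scaled to library size) in Lats1-CKO tumors and between 108 and 128 CPM in their WT littermates. Lats2 was 8.26, 10.6 and 15.9 CPM in Lats2-CKO tumors 7, 8 and 16, but 32.5 CPM in the library labelled Lats2-CKO 1, within the 23.0 to 53.3 CPM of WT tumors. The log2 differences of the members in the Lats2 experiment are therefore also given without that library. Library totals ran between 18593864 and 31909282 counts, and the 10 genes together took 0.0541% to 0.146% of them, with 97 to 13618 counts for a single gene in a single tumor. Some tumors carried transcripts of other cells. Skeletal muscle markers summed to 2250 CPM in Lats2-CKO tumor 7, against at most 12.7 CPM in WT tumors of that experiment, T and NK cell markers to 1578 CPM in WT tumor 14 of the Lats2 experiment, and squamous markers to 537 CPM in Lats1-CKO tumor 21, the adenosquamous carcinoma. In the Lats1 experiment, skeletal muscle markers also summed to 795 CPM in Lats1-CKO tumor 21, 188 in Lats1-CKO tumor 14 and 241 CPM in WT tumor 17, and T and NK cell markers to 358 CPM in WT tumor 22. In bulk tumor RNA, fewer cells of a type and less RNA per cell cannot be told apart.

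Per length, the targets and the receptors Notch1 and Notch3 were the most abundant members. Hey1, a repressor of the HES-related family, had 56.1 ± 31.2 CPM per kb of merged exons (SD, n = 14 tumors), above 95.4% of the genes with a length. Notch1 followed with 21.2 ± 6.72, Hes1 with 17.5 ± 7.71 and Notch3 with 16.2 ± 6.74 CPM per kb. Notch2 stood at 9.61 ± 2.41, Dll1 at 9.36 ± 7.26 and Jag1 at 4.30 ± 3.18 CPM per kb. Dll4 had 3.49 ± 1.42, Jag2 2.93 ± 1.44 and Notch4, the lowest, 1.42 ± 0.434 CPM per kb. Many neighbors in this order were not separated. Hes1 exceeded Notch3 in 6 of 14 tumors, Jag1 exceeded Dll4 in 7, Notch2 exceeded Dll1 in 9 and Notch1 exceeded Hes1 in 9, whereas Hey1 exceeded Notch1 in 12, Notch3 exceeded Notch2 in 13 and Jag2 exceeded Notch4 in all 14. The 2 experiments were normalized separately, so levels set across them rest on that scaling. Dividing by the longest transcript put Hey1 at 75.5, Notch1 at 31.7, Hes1 at 24.25 and Notch3 at 16.3 CPM per kb. By that length Dll1 (11.03) stood above Notch2 (9.86), and Jag2 (3.99) above Dll4 (3.58).

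**Figure D1:**
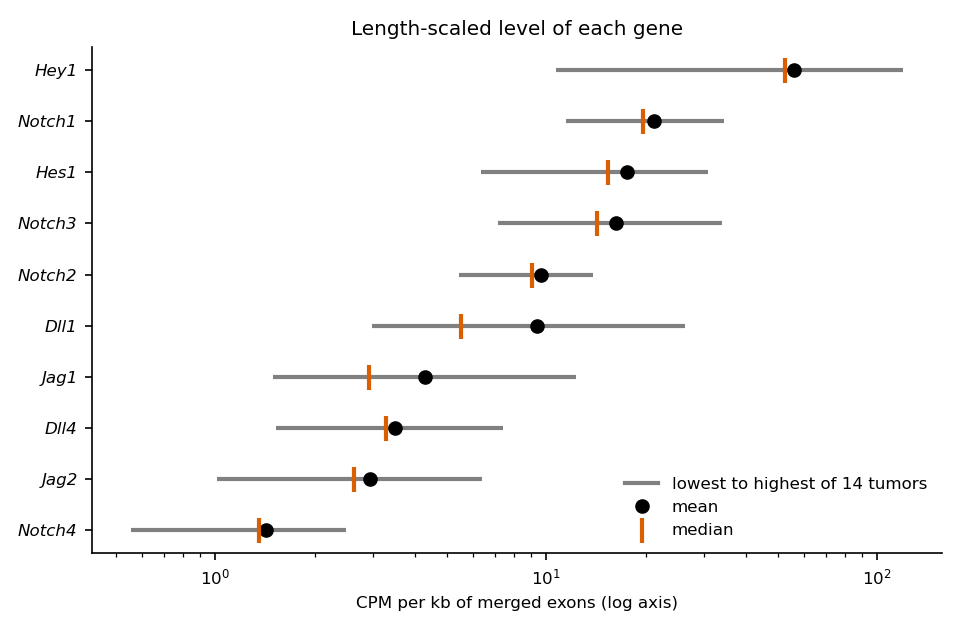
CPM per kb of merged exons (log axis) of the 10 Notch genes over 14 tumors, with the range as a line, the mean as a dot and the median as a tick. Hey1 had the highest mean, 56.1 CPM per kb, and Notch4 the lowest, 1.42 CPM per kb.

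The ligand Dll1 varied more between tumors than the receptors and was the member with the largest difference after Lats1 deletion. Dll1 encodes a Delta-like ligand that presents to receptors on neighboring cells. It lies on chromosome 17 (GRCm38, 15367354 to 15376872, minus strand). In Lats1-CKO tumors it had 111 CPM in tumor 18, 60.1 in tumor 14, 42.5 in tumor 27 and 24.2 in tumor 21, against 19.7, 22.6 and 12.5 CPM in WT tumors 17, 20 and 22. Every Lats1-CKO tumor was above every WT tumor, although tumor 21 exceeded the highest WT tumor by little. The fitted fold was 3.25 (95% interval 1.42 to 7.44; log2 1.70, SE 0.51), with an adjusted p of 0.332 over all 17763 genes in edgeR's quasi-likelihood test, which does not pass 0.05. DESeq2 gave Dll1 an adjusted p of 0.0157. With the mean of 12 endothelial markers as a covariate the log2 difference was 1.02, and over the other alternatives it stayed between 1.22 and 1.96. On the opposite strand, the long noncoding RNA A930024N18Rik shares 867 bases with Dll1 exons. The kit did not mark strand, so their reads cannot be told apart. Notch1 exons also share 1068 bases with 0610009E02Rik and 414 with Gm13568, and Notch3 exons 488 with Gm17276, all on the opposite strand. Notch2 exons share 541 bases with Gm42820 on the same strand.

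Hes1, a basic helix-loop-helix repressor and the most general target of Notch receptors, was also higher in every Lats1-CKO tumor. It is on chromosome 16 (30064384 to 30067796, plus strand). Hes1 had 62.9, 57.3, 48.8 and 30.1 CPM in Lats1-CKO tumors 18, 27, 14 and 21, against 28.9, 27.2 and 23.2 CPM in WT tumors 17, 20 and 22. The groups did not overlap, and tumor 21 was again the Lats1-CKO tumor nearest to WT. The fitted fold was 1.88 (95% interval 1.26 to 2.82; log2 0.91, SE 0.25), with an adjusted p of 0.294 by edgeR and of 0.0215 by DESeq2. With the endothelial covariate it was 0.60 on the log2 scale. Without tumor 21 the log2 difference was 1.09, with an adjusted p of 0.0767 by edgeR. The 12 endothelial markers summed to 167 to 301 CPM in Lats1-CKO tumors and 245 to 336 CPM in WT tumors, with lower fitted levels in Lats1-CKO tumors for 10 of 12. Among the alternatives, DESeq2 alone took either gene past the threshold.

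The Jagged ligands and the other members did not separate the Lats1 groups. Jag1, on chromosome 2, had 51.9 CPM in tumor 21, 47.2 in tumor 27, 15.5 in tumor 18 and 8.72 in tumor 14 of the Lats1-CKO group, against 14.2 to 17.6 CPM in WT tumors. Tumors 21 and 27 thus lay above the WT range, tumor 18 inside it and tumor 14 below it, and the log2 difference of 0.94 (SE 0.60) had an adjusted p of 0.576 by edgeR. Jag2, on chromosome 12, showed the same tumors high, with 44.4 CPM in tumor 27 and 38.0 in tumor 21, while tumors 18 and 14 had 22.3 and 14.8 CPM and WT tumors 14.4 to 21.7 CPM (log2 0.73, SE 0.38, edgeR adjusted p = 0.507). The tumors with high Jagged ligands were thus not the tumors with the highest Dll1. Basal and myoepithelial markers were higher in Lats1-CKO tumors for 8 of 9 genes by fitted level, as they were in Lats2-CKO tumors. Their sums were 1113 and 1677 CPM in Lats1-CKO tumors 27 and 21, but 515 and 357 CPM in tumors 18 and 14. WT tumors of the Lats1 experiment had 424 to 557 CPM. Mural markers were higher for 8 of 8, with sums of 57.8 to 172 CPM in Lats1-CKO and 73.9 to 88.2 CPM in WT tumors. Squamous markers were higher for 9 of 10 by fitted level. Their sums were 537 CPM in Lats1-CKO tumor 21 but 30.8, 29.9 and 46.2 CPM in tumors 27, 18 and 14. WT tumors had 37.2 to 76.6 CPM. Luminal markers were lower in Lats1-CKO tumors for 11 of 12, with sums of 3410 to 4808 CPM in Lats1-CKO and 4388 to 5301 CPM in WT tumors. Adipocyte markers were lower for 10 of 10 (192 to 967 CPM in Lats1-CKO and 1140 to 2352 CPM in WT tumors), T and NK cell markers for 8 of 8 (5.42 to 16.2 CPM in Lats1-CKO and 4.70 to 358 CPM in WT tumors) and B and plasma cell markers for 7 of 7 (1.57 to 18.7 CPM in Lats1-CKO and 1.59 to 403 CPM in WT tumors), by fitted level, with 0 markers of any list called by edgeR. The high WT sums of T and NK cell and of B and plasma cell markers were those of WT tumor 22. In WT tumors 17 and 20 the sums were inside or below the Lats1-CKO range. They were 5.87 and 4.70 CPM for T and NK cells and 1.59 and 2.20 CPM for B and plasma cells. The part of all these lists in the changes of Dll1, Hes1 and the Jagged ligands was not tested.

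Among receptors, Notch1 leaned the other way in the Lats1 experiment. It had 164 to 295 CPM in Lats1-CKO tumors and 274 to 356 CPM in WT tumors, with tumor 18 alone inside the WT range (log2 -0.40, SE 0.20, edgeR adjusted p = 0.493). Notch2 averaged 83.8 ± 19.2 CPM in Lats1-CKO and 97.9 ± 8.33 CPM in WT tumors, and Notch3 111 ± 31.0 CPM in Lats1-CKO and 113 ± 4.83 CPM in WT tumors (SD, n = 4 Lats1-CKO and 3 WT). Notch4 averaged 13.6 ± 4.50 CPM in Lats1-CKO and 12.04 ± 0.480 CPM in WT tumors. Dll4, at 11.96 to 28.4 CPM in Lats1-CKO and 13.8 to 14.8 CPM in WT tumors, was high in tumor 18 only. Hey1 overlapped widely, with 34.9 to 227 CPM in Lats1-CKO and 117 to 154 CPM in WT tumors, its lowest value again in tumor 21. With the endothelial covariate its log2 difference was -0.91 instead of 0.15. In all, edgeR called 0 of 10 members at an adjusted p under 0.05, where 0.0225% of all genes were called. Before adjustment, 2 members passed 0.05 with higher levels (4.76% of all genes) and 0 with lower levels (6.58%). DESeq2 called 2 of 10, against 3.96% of the genes it tested, and the same 2 members were those whose groups did not overlap (11.3% of all genes). The median log2 difference was 0.22 over the members and -0.0029 over all genes.

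**Figure D2:**
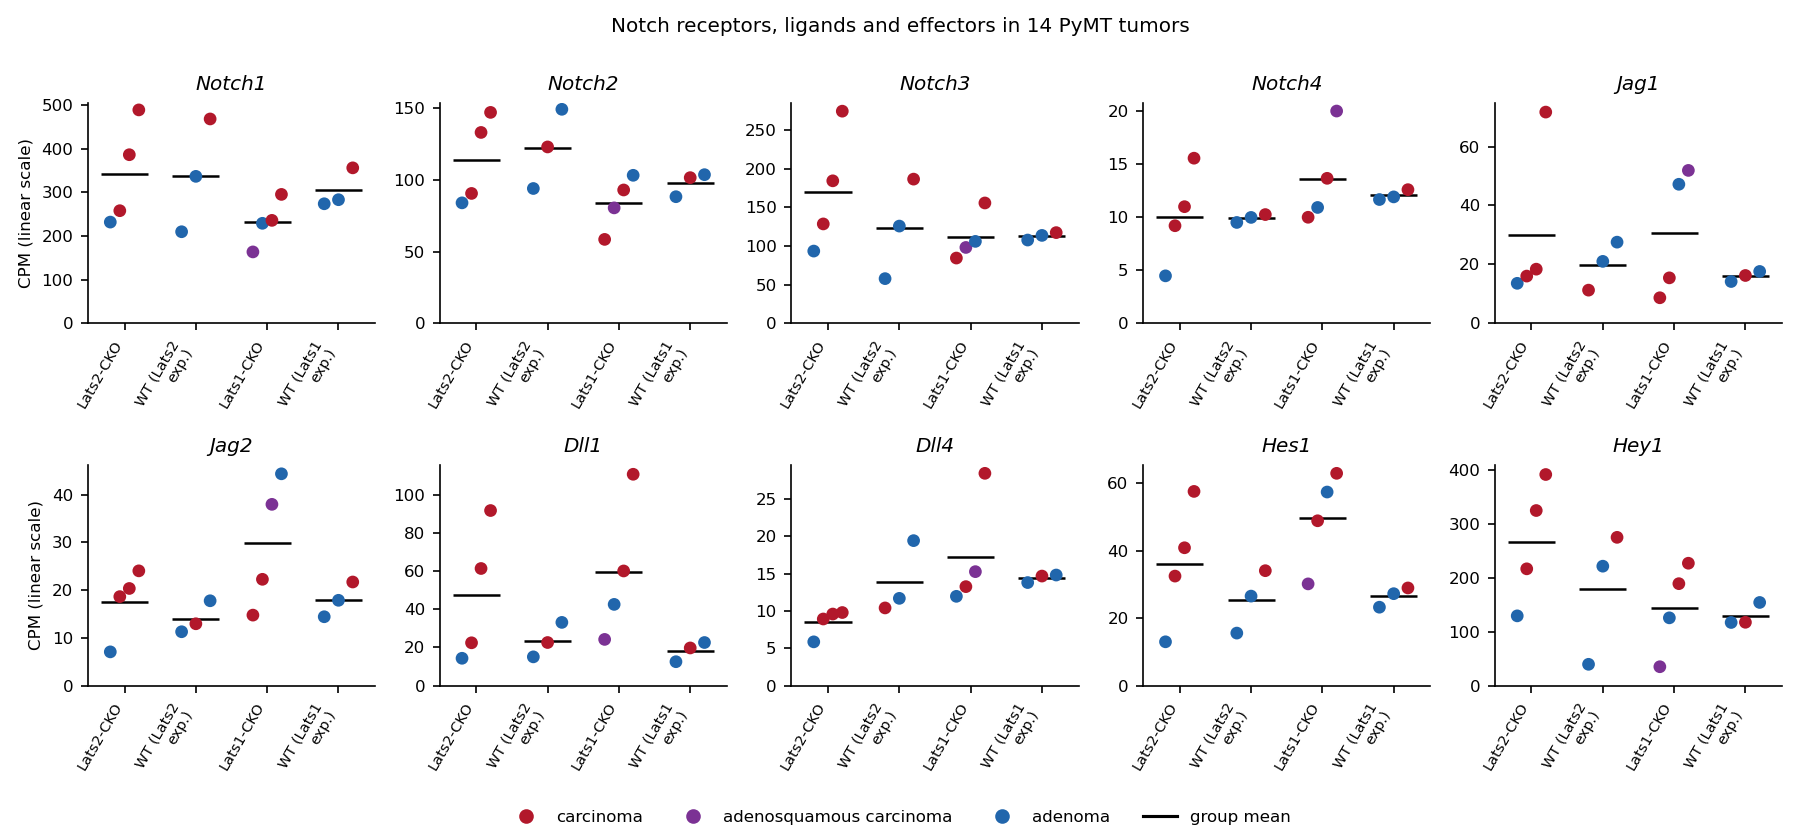
CPM (linear scale, from 0) of each Notch gene in every tumor, by group, with points in order of value within a group, color for histology and a line at the group mean. Dll1 and Hes1 are higher in all 4 Lats1-CKO tumors than in their 3 WT littermate tumors, and Dll4 is lower in all 4 libraries labelled Lats2-CKO, of which number 1 has Lats2 within the WT range, than in theirs.

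In the Lats2 experiment, Dll4 was the only member whose groups did not overlap, and its values were lower in the 4 libraries labelled Lats2-CKO. Dll4, the Delta-like ligand of sprouting endothelium, is on chromosome 2 (119325784 to 119335962, plus strand). It had 5.86, 9.79 and 9.59 CPM in Lats2-CKO tumors 7, 16 and 8, with 8.92 CPM in the tumor labelled Lats2-CKO 1, against 11.7, 19.4 and 10.4 CPM in WT tumors 14, 2 and 1. WT tumor 2 stood highest, and the gap between WT tumor 1 and Lats2-CKO tumor 16 was small. The fold was 0.617 (95% interval 0.365 to 1.04; log2 -0.70, SE 0.32), with an adjusted p of 0.688 by edgeR. Without the library labelled Lats2-CKO 1 the log2 difference of Dll4 was -0.72 (SE 0.38, edgeR adjusted p = 0.906). It was -0.37 without WT tumor 2 and stayed below 0 in all 16 alternatives. All 12 endothelial markers had lower fitted levels in Lats2-CKO tumors (median log2 -1.21, 0 called by edgeR and 1 at an unadjusted p under 0.05). Their sums were 53.6 to 169 CPM in Lats2-CKO tumors and 49.9 to 437 CPM in WT tumors, with none at 0. Other lists had larger fitted differences, with 0 markers called by edgeR. Adipocyte markers were lower for 10 of 10 (median log2 -4.81; 181 to 944 CPM in Lats2-CKO and 382 to 8971 CPM in WT tumors), T and NK cell markers for 8 of 8 (median -4.47; 8.92 to 51.2 CPM in Lats2-CKO and 11.02 to 1578 CPM in WT tumors) and B and plasma cell markers for 6 of 7 (median -7.37; 1.49 to 141 CPM in Lats2-CKO and 1.58 to 1350 CPM in WT tumors), and the 6 skeletal muscle markers were higher (median 7.15; 2.19 to 2250 CPM in Lats2-CKO and 2.164 to 12.7 CPM in WT tumors). The high T and NK and B and plasma cell sums were those of WT tumor 14, and the high muscle sum was that of Lats2-CKO tumor 7. WT tumors 2 and 1 had 16.4 and 11.02 CPM for T and NK cells and 25.1 and 1.58 CPM for B and plasma cells. The part of these 4 lists in the Dll4 result was not tested. That of the endothelial markers was not tested beyond the covariate fit, in which the log2 difference of Dll4 was -0.44. Notch4, the receptor best known from endothelium, averaged 10.04 ± 4.57 CPM in Lats2-CKO and 9.90 ± 0.375 CPM in WT tumors (SD, n = 4 and 3), with its lowest value, 4.48 CPM, in tumor 7. Gm14207 overlaps Dll4 exons by 214 bases on the opposite strand.

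The remaining ligands and targets overlapped between the groups of the Lats2 experiment. Dll1 had 91.7, 61.4 and 14.3 CPM in Lats2-CKO tumors 16, 8 and 7, with 22.4 CPM in the tumor labelled Lats2-CKO 1, against 15.05, 33.1 and 22.6 CPM in WT tumors 14, 2 and 1. Thus tumors 16 and 8 exceeded all WT tumors (log2 1.01, SE 0.66, edgeR adjusted p = 0.733). The log2 difference was 1.24 without the library labelled Lats2-CKO 1 and 0.47 without tumor 16. With histology as a covariate it was 0.36. Jag1 reached 71.7 CPM in the library labelled Lats2-CKO 1 and 13.6 to 18.4 CPM in the other Lats2-CKO tumors, against 11.3 to 27.6 CPM in WT tumors. Leaving that library out turned the log2 difference to -0.32, compared with 0.58 in all tumors. Hes1 was likewise highest in that library, with 57.5 CPM, and lowest in tumor 7, with 12.97 CPM, while tumors 16 and 8 had 40.8 and 32.4 CPM and WT tumors 15.5 to 34.0 CPM. Its log2 difference was 0.50 (SE 0.50) with the library and 0.18 without it, and -0.14 with histology as a covariate. Jag2 had 20.3, 18.6 and 7.06 CPM in Lats2-CKO tumors 8, 16 and 7, with 24.04 CPM in the tumor labelled Lats2-CKO 1, against 11.3, 17.8 and 12.9 CPM in WT tumors 14, 2 and 1. Tumor 7 was thus below the WT tumors and the other 3 libraries above them, and the log2 difference of Jag2 without the library labelled Lats2-CKO 1 was 0.13.

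Hey1 had 391, 216 and 129 CPM in Lats2-CKO tumors 16, 8 and 7, with 325 CPM in the tumor labelled Lats2-CKO 1, against 275, 221 and 39.4 CPM in WT tumors 1, 2 and 14. WT tumor 14, the tumor rich in lymphocyte transcripts, was the lowest, and without it the log2 difference was 0.10, compared with 0.57 (SE 0.65) in all tumors and 0.46 without the library labelled Lats2-CKO 1. Notch3 followed the same tumors, with 93.4 to 274 CPM in Lats2-CKO and 57.9 to 186 CPM in WT tumors (log2 0.46, SE 0.48, 0.12 without WT tumor 14, and 0.58 without the library labelled Lats2-CKO 1). Notch1 averaged 341 ± 119 CPM in Lats2-CKO and 338 ± 129 CPM in WT tumors, and Notch2 114 ± 31.1 CPM in Lats2-CKO and 122 ± 27.6 CPM in WT tumors (SD, n = 4 Lats2-CKO and 3 WT). Without the library labelled Lats2-CKO 1, the log2 differences of Notch1, Notch2 and Notch4 were 0.13, -0.19 and -0.0236. The intervals left room for sizable differences, 0.561-fold to 1.82-fold for Notch1 and 0.632-fold to 2.48-fold for Jag2. By edgeR, 0 of 10 members were called, where 0% of all genes were, and 0 members reached an unadjusted p of 0.05 in either direction (7.08% of all genes). DESeq2 called 0 members at its adjusted threshold (0.889% of the genes it tested). EdgeR also called 0 members without the library labelled Lats2-CKO 1, and 0 without WT tumor 14 and Lats2-CKO tumor 7 together. The 1 member of 10 without overlap, Dll4, stands beside 3.69% of all genes. The median log2 difference was 0.39 over the members and -0.0028 over all genes.

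**Figure D3:**
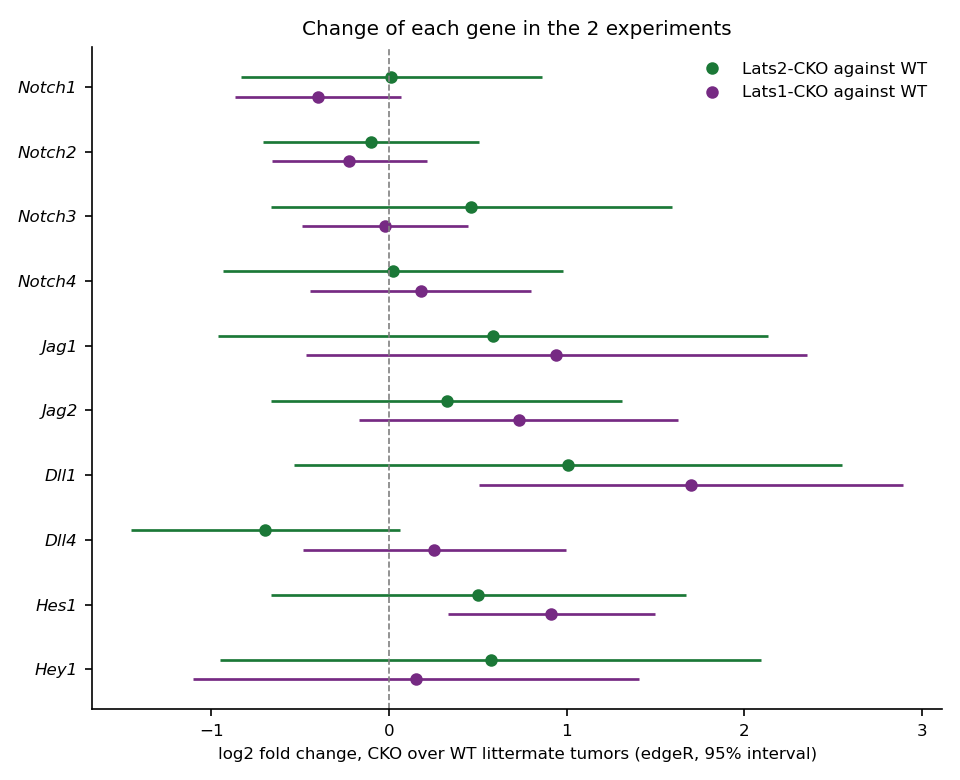
Fitted log2 fold change of each Notch gene, Lats2-CKO over WT in green and Lats1-CKO over WT in purple, with 95% intervals from edgeR. The intervals of Dll1 (0.51 to 2.90) and Hes1 (0.33 to 1.495) in the Lats1 experiment lie above 0, and all others include 0.

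The change after Lats1 deletion was set against the change after Lats2 deletion in a fit of all 14 libraries. Dll4 differed most, with a log2 difference between the changes of 0.98 (SE 0.46; 95% interval -0.0075 to 1.97; edgeR adjusted p = 0.913). The change of Dll1 was 0.72 larger (SE 0.87) and that of Hes1 0.44 larger (SE 0.59) on the log2 scale after Lats1 deletion, with edgeR adjusted p-values of 0.914 and 0.916. Neither Dll1 nor Hes1 was thus shown to respond differently to the 2 deletions, and the intervals, -1.17 to 2.61 for Dll1 and -0.84 to 1.72 for Hes1, include both no difference and large ones. EdgeR called 0 members (0.0174% of all genes) and 0 members reached an unadjusted p of 0.05 (3.16% of all genes). DESeq2 called 0 as well (0.115%). The genotypes were sequenced in separate experiments, each with its own WT littermates. Without the library labelled Lats2-CKO 1, the log2 differences between the changes were 1.003 for Dll4, 0.49 for Dll1 and 0.77 for Hes1, and 0 members were called by edgeR.

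Carcinomas were compared with adenomas across genotypes, with the group as a covariate and the adenosquamous carcinoma left out. Notch1, Notch3, Hes1 and Hey1 had higher levels in carcinomas, but none passed the adjusted threshold. Notch1 had a lowest, median and highest value of 236, 356 and 488 CPM in 7 carcinomas and of 210, 253 and 336 CPM in 6 adenomas, a fold of 1.41 (95% interval 1.07 to 1.86; log2 0.50, SE 0.18, edgeR adjusted p = 0.828). Most carcinomas lay above the adenoma median, and the ranges overlapped. Notch3 had 84.4, 156 and 274 CPM in carcinomas and 57.9, 107 and 126 CPM in adenomas (log2 0.58, SE 0.28). Hes1 had 28.9, 40.8 and 62.9 CPM in carcinomas and 12.97, 24.9 and 57.3 CPM in adenomas (log2 0.60, SE 0.28). Hey1 had 117, 227 and 391 CPM in carcinomas and 39.4, 127 and 221 CPM in adenomas (log2 0.74, SE 0.39). These 3 genes share edgeR's adjusted p of 0.828. The lowest adenoma values were in WT tumor 14 for Notch1, Notch3 and Hey1 and in Lats2-CKO tumor 7 for Hes1. In WT tumor 14, T and NK cell markers summed to 1578 CPM and luminal markers to 1430 CPM, the lowest luminal sum. In Lats2-CKO tumor 7, skeletal muscle markers summed to 2250 CPM. The part of these transcripts was not tested. Over 19 alternatives the log2 differences ran from 0.44 to 0.73 for Notch3, 0.28 to 0.87 for Hes1 and 0.49 to 1.06 for Hey1. Without the library labelled Lats2-CKO 1, itself a carcinoma, the log2 differences were 0.54 for Notch1, 0.62 for Notch3, 0.53 for Hes1 and 0.72 for Hey1. Dll1 had 19.7, 60.1 and 111 CPM in carcinomas and 12.5, 18.8 and 42.5 CPM in adenomas, with a log2 difference of 0.76 (SE 0.48) that was 0.039 among the 6 WT-PyMT tumors alone. Jag1 was the 1 member with a lower fitted level in carcinomas (log2 -0.56, SE 0.58).

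Of the 10 members, edgeR called 0 between carcinomas and adenomas (0% of all genes). Before adjustment, 1 passed with a higher level, Notch1 (1.6% of all genes), and 0 with a lower level (2.94%). DESeq2 called 0 (0.649%). The median log2 difference was 0.44 over the members and -0.05 over all genes. In the 6 WT-PyMT tumors alone, the log2 difference of Notch1 was 0.57 (SE 0.23, edgeR adjusted p = 0.902), and over all 19 alternatives it ran between 0.42 and 0.60. Endothelial markers had lower fitted levels in carcinomas for 11 of 12 genes, adipocyte markers for 10 of 10, mural for 8 of 8, fibroblast for 9 of 9, T and NK cell for 8 of 8 and B and plasma cell markers for 7 of 7, with 0 markers called by edgeR. Macrophage markers were lower for 7 of 8, skeletal muscle for 5 of 6 and basal and myoepithelial for 6 of 9. Squamous markers were higher in carcinomas for 6 of 8 and luminal markers for 7 of 12, also with 0 called. The part of these lists in the members' values was not tested beyond the endothelial covariate, with which Notch1 stood at 0.47.

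Some members varied together across tumors within an experiment. Over 14 tumors, with each experiment's mean log2 CPM taken off, 37 of the 45 pairs had a positive correlation. Of the 45, 31 had the same sign in both experiments, and 1 passed an adjusted permutation p of 0.05 by Pearson's r. The share of positive pairs among all genes was not computed, so these counts are a description. P-values come from permuting tumors within their experiment. Notch1 and Notch3 were the closest pair (Pearson's r = 0.81, permutation p = 0.00062, adjusted over 45 pairs 0.0279; Spearman's rho = 0.89, p = 0.00025, adjusted 0.0113), with r = 0.93 in the Lats2 and 0.53 in the Lats1 experiment and r = 0.73 without the 2 tumors farthest in Notch3. Dll1 and Hes1 had r = 0.72 (permutation p = 0.00686, adjusted 0.0617) and rho = 0.81 (permutation p = 0.00137, adjusted 0.0308), with r = 0.55 in the Lats2 and 0.94 in the Lats1 experiment. Without the library labelled Lats2-CKO 1 and tumor 7, the 2 tumors farthest in Hes1, r was 0.87. The library labelled Lats2-CKO 1 stood off this line, high in Hes1 and Jag1 but not in Dll1. Because Dll1 and Hes1 both separate the Lats1 groups, their r there also carries the genotype.

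The Jagged ligands paired with each other, with r = 0.73 for Jag1 and Jag2 (permutation p = 0.00612, adjusted 0.0617; rho = 0.61, permutation p = 0.0289, adjusted 0.183). Without the 2 tumors farthest in Jag2, r was 0.69. Hes1 and Hey1 had r = 0.68 (permutation p = 0.00936, adjusted 0.0702) and rho = 0.78 (permutation p = 0.00274, adjusted 0.0411), and r = 0.80 without the 2 tumors farthest in Hey1. Among the receptors, Hey1 had r = -0.059 with Notch2 and -0.078 with Notch4. It had r = 0.73 with Notch3 (permutation p = 0.0046, adjusted 0.0617; rho = 0.61, permutation p = 0.0315, adjusted 0.183) and r = 0.71 with Notch1 (permutation p = 0.00572, adjusted 0.0617; rho = 0.56, permutation p = 0.0555, adjusted 0.239). Without WT tumor 14 and Lats1-CKO tumor 21, the lowest in Hey1, the r values with Notch3 and Notch1 were 0.63 and 0.38. The relation of Notch1 to Hey1 thus rested on those 2 tumors. Notch1 and Jag1 had the most negative value (r = -0.52, permutation p = 0.0608, adjusted 0.229; rho = -0.45, permutation p = 0.128, adjusted 0.400). All pairs share the libraries, so tumor composition enters each of them.

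**Figure D4:**
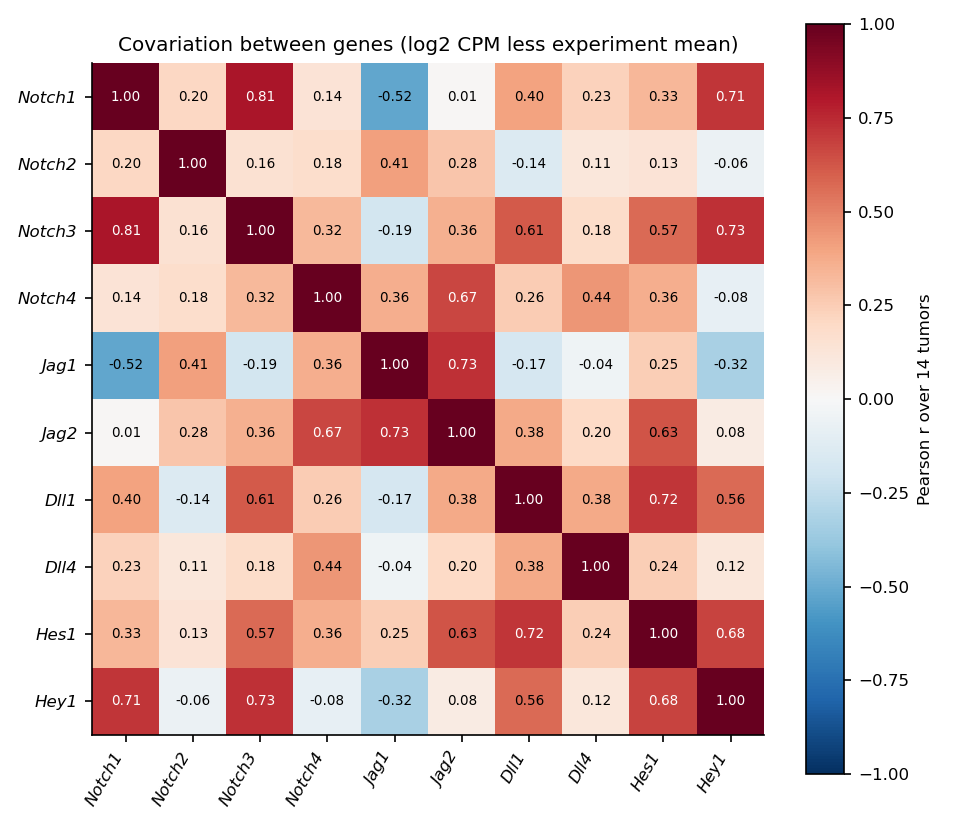
Pearson's r between each pair of the 10 Notch genes over 14 tumors, computed on log2 CPM less the mean of the experiment (red positive, blue negative). Notch1 and Notch3 have the highest value, 0.81, and Notch1 and Jag1 the lowest, -0.52.

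**Figure D5:**
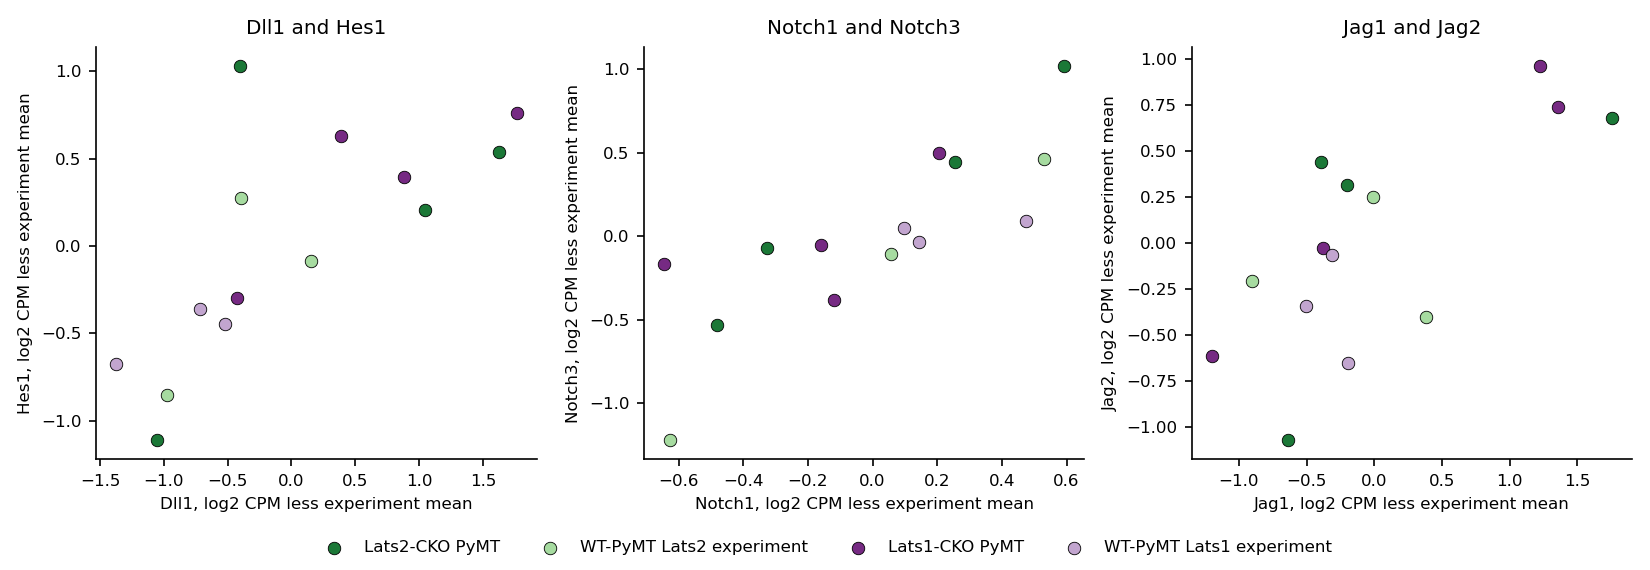
Each point is 1 of 14 tumors, colored by group, with log2 CPM less the mean of the experiment on both axes for Dll1 and Hes1, Notch1 and Notch3, and Jag1 and Jag2. Points run from lower left to upper right in all 3 panels, with r = 0.72, 0.81 and 0.73, and the library labelled Lats2-CKO 1 lies at the top of the first panel, high in Hes1 and not in Dll1.

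None of the members tracked the endothelial list past the threshold. Dll4 had the highest correlation with the mean of the 12 endothelial markers (r = 0.55, permutation p = 0.0646, adjusted over 10 genes 0.619; rho = 0.35, permutation p = 0.261, adjusted 0.552), with r = 0.76 in the Lats2 and -0.16 in the Lats1 experiment. Without WT tumors 14 and 2 of the Lats2 experiment r was 0.25, so the relation rested on those tumors. Notch4 followed with r = 0.45 (permutation p = 0.224, adjusted 0.619; rho = 0.35, permutation p = 0.247, adjusted 0.552), and 0.63 without the same 2 tumors. In the Lats1 experiment, Dll1 and Hes1 had negative values, r = -0.81 (exact permutation p = 0.0268, n = 7) and r = -0.80 (exact permutation p = 0.0399, n = 7), neither of them adjusted, whereas in the Lats2 experiment they were 0.029 and -0.11. Both genes separate the Lats1 groups, and 10 of 12 endothelial markers had lower fitted levels in Lats1-CKO tumors. The values of the Lats1 experiment thus also carry the genotype.

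The genes whose levels most resembled each member over the 14 tumors were taken by Pearson's r from 13460 genes, as a description. For Hey1 they were Phlpp1 (r = 0.98), Adrb1 (0.96) and Mapk8ip1 (0.95), and for Hes1 Gramd2 (0.96), Tcf12 (0.95) and Gm715 (0.95). For Jag1 they were Kremen1 (0.97), Tubb3 (0.95) and Tll1 (0.90), and for Jag2 Abat (0.95), Frem2 (0.94) and Kirrel (0.94). Notch3 was nearest to Iqsec2 (0.96), Napb (0.93) and Pigg (0.93), Notch1 to B4galt6 (0.93), Hsd3b7 (0.92) and C1rl (0.90), and Notch2 to Foxo1 (0.86), Zfp689 (0.85) and Pias3 (0.84). Dll1 was nearest to Cstad (0.89), Numb (0.89) and Rasgef1c (0.89), of which Numb encodes an adaptor that promotes Notch receptor turnover. Dll4 and Notch4 had less similar partners, Zfp11 (0.84), Fam73b (0.81) and 3000002C10Rik (0.81) for Dll4 and Clic3 (0.86), Ephb1 (0.85) and Pcnx (0.84) for Notch4.

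A further 53 genes of the pathway were followed, in 6 classes: other ligand-like proteins, receptor processing, glycosylation of receptors, endocytosis and turnover, the nuclear complex and other targets. In the Lats1 experiment 52 were measured, and edgeR called 0. Before adjustment, 4 of 52 passed with higher levels (4.76% of all genes) and 5 of 52 with lower levels (6.58%), and the list had a median log2 difference of -0.011. Nrarp, a target that feeds back on the Notch intracellular domain, had 23.0, 17.2, 13.3 and 8.25 CPM in Lats1-CKO tumors 27, 21, 18 and 14, against 6.78, 5.84 and 7.70 CPM in WT tumors 17, 20 and 22. All 4 Lats1-CKO tumors were above the WT tumors (log2 1.19, SE 0.35, adjusted p = 0.331 by edgeR and 0.0367 by DESeq2). Kat2b, an acetyltransferase that joins the Notch transcription complex, had 40.7 to 48.5 CPM in Lats1-CKO and 57.8 to 67.5 CPM in WT tumors (log2 -0.42, SE 0.10, adjusted p = 0.231 by edgeR and 0.0109 by DESeq2). Neurl1b, a ubiquitin ligase for Notch ligands, had 2.72 to 4.80 CPM in Lats1-CKO and 6.80 to 8.61 CPM in WT tumors (log2 -0.92, SE 0.27, adjusted p = 0.324 by edgeR and 0.0353 by DESeq2). Nrarp, Kat2b and Neurl1b were named for their small p-values. Their groups did not overlap, as for 11.3% of all genes, and DESeq2 called 3.96% of the genes it tested. Gata3, a luminal transcription factor, had 165 to 257 CPM in Lats1-CKO and 250 to 326 CPM in WT tumors (log2 -0.51, SE 0.18, edgeR adjusted p = 0.390). Hes1 and Nrarp had higher levels in the same 4 tumors, but in a different order of tumors.

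In the Lats2 experiment 51 of the 53 were measured and edgeR called 0. Before adjustment, 2 of 51 passed with higher and 3 of 51 with lower levels, beside 7.08% of all genes in either direction, with a median log2 difference of 0.11. Mfng, a glycosyltransferase that modifies Notch receptors, had 2.86 to 4.01 CPM in Lats2-CKO tumors, against 103 CPM in WT tumor 14, 24.3 in WT tumor 2 and 2.44 in WT tumor 1 (log2 -3.64, SE 1.00, adjusted p = 0.688 by edgeR and 0.0188 by DESeq2). DESeq2 called 0.889% of the genes it tested in this experiment. The highest Mfng value thus fell in the tumor with T and NK cell markers summing to 1578 CPM. Rbpj, the DNA-binding partner of all 4 receptors, had 20.5 to 26.3 CPM in Lats2-CKO and 31.1 to 36.3 CPM in WT tumors (log2 -0.50, SE 0.17, adjusted p = 0.688 by edgeR). These groups did not overlap, as for 3.69% of all genes. The 2 genes that passed with higher levels, Ncstn and Neurl1a, did not overlap either. Ncstn, a subunit of γ-secretase, had 236 to 297 CPM in Lats2-CKO and 132 to 228 CPM in WT tumors (log2 0.51, SE 0.21, adjusted p = 0.688 by edgeR). Neurl1a, a ubiquitin ligase, had 1.54 to 5.72 CPM in Lats2-CKO and 0.290 to 1.06 CPM in WT tumors (log2 1.95, SE 0.70, adjusted p = 0.688 by edgeR). The Lats2-CKO values of these genes include the library labelled Lats2-CKO 1, whose Lats2 was within the WT range. It had 3.54 CPM for Mfng, 26.3 for Rbpj, the highest of its group, 257 for Ncstn and 2.52 for Neurl1a. Fits without it are not given for these genes. Nrarp reached 32.8 CPM in the library labelled Lats2-CKO 1 and 3.46 to 9.25 CPM in the other Lats2-CKO tumors, against 3.30 to 11.5 CPM in WT tumors. Between the 2 deletions, 0 of 51 were called by edgeR and 1, Ncstn, passed before adjustment with a lower value (log2 -0.56, SE 0.22), beside 3.16% of all genes in either direction. Between carcinomas and adenomas, 0 of 51 were called by edgeR and 3 higher (1.6% of all genes) and 2 lower (2.94%) passed before adjustment, among them the corepressor gene Spen (log2 0.33, SE 0.10, adjusted p = 0.828 by edgeR).

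Promoter sequence was read for the members with an entry in RefSeq's promoter table (GRCm38.p6), 9 windows for 8 of the 10 genes, Dll1 having 2. Hes1 and Hey1 had no entry. The 250 bases before each start were searched on both strands for TGGGAA, the core of the RBPJ site, and GGAATG, the core of the TEAD site, TEAD being the DNA-binding partner of YAP and TAZ. The RBPJ core was in 0 of the 9 windows and in 21.6% of 32851 windows of all genes. The TEAD core was in 2 of the 9 windows, those of Notch1 and Notch4, and in 12.6% of all windows. Below are the outer Dll1 window (chr17:15376933-15377182, minus strand), because Dll1 differed most, and the Notch1 (chr2:26503823-26504072, minus strand) and Notch4 (chr17:34564045-34564294, plus strand) windows, with matches to the TEAD core in capitals, 2 in Notch1 and 1 in Notch4, each in the reverse form CATTCC. A match is a run of letters and says nothing of binding.
Dll1: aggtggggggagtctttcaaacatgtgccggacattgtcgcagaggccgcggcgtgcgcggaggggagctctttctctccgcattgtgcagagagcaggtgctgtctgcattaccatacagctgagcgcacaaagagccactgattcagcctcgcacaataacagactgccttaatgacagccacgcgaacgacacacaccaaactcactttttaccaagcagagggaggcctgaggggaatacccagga
Notch1: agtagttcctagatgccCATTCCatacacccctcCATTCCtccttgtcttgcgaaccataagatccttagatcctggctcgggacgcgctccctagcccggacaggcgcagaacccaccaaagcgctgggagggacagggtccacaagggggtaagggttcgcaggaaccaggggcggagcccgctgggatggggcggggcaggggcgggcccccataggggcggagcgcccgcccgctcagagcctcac
Notch4: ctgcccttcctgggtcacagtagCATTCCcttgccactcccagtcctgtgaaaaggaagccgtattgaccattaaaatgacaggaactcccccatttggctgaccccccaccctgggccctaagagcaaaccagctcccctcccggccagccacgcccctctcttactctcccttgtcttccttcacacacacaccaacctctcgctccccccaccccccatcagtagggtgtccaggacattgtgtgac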

How the data were processed

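RNA-seq was done on 14 tumors with the Illumina TruSeq RNA v2 kit, with 7 libraries per lane and single-end 60-bp reads. Reads were aligned with STAR to mm10 (per the submitters' processing notes), and the authors deposited raw read counts per RefSeq gene. The deposited tables hold genes whose counts summed to at least 5 (lowest sum found, 6). The counts were scaled by TMM within each experiment and given as CPM. EdgeR 4.0.16 (quasi-likelihood, R 4.3.3) fitted all genes of a table, with Benjamini-Hochberg adjustment over the whole table and a threshold of 0.05. DESeq2 1.42.0, the tool of the authors, was an alternative. Each experiment was fitted alone. The difference between the changes used all 14 libraries and the 17232 shared genes, and carcinoma against adenoma used 13. Log2 CPM used a prior count of 2. Correlations used 100000 permutations within experiments, or all orders of 7 tumors. Exon lengths came from GENCODE vM21 (96.2% of shared genes matched by symbol). The members and all gene lists were chosen with earlier results of these data known. The pathway list was named by the smallest p-values, up to 8 genes. The correlations between members were added after the data were seen. In 18 pairs of libraries of 1 group, the chi-square per degree of freedom was at least 23.1, so none was a duplicate. The fits were tested on simulated data.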

Additional observations from a re-analysis of the deposited data

Results flagged for a closer look

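In 20 groups of 4 tumors (10 genes, 2 CKO groups), 1 tumor stood far from the others. Jag1 had 71.7 CPM in the library labelled Lats2-CKO 1, against 13.6, 16.1 and 18.4 CPM in the other Lats2-CKO tumors. Its gap to the next tumor was 0.917 of the whole range, above the 95% critical value of the Dixon test for 4 tumors. Chance gives such a gap in about 1 of 20 groups. The same library had Lats2 at 32.5 CPM, inside the WT range.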

How the results depend on the processing

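Of the member values under alternatives, 142 of 160 kept their direction and side of the threshold in the Lats2 comparison, 148 of 160 in the Lats1 comparison, 182 of 190 in the difference between the changes and 181 of 190 between carcinomas and adenomas. Values that changed sign follow as log2 differences, none of them called, and the cause was not tested. The main fits called 0, 4, 3 and 0 genes in these comparisons, and 0 members. With DESeq2, 138 genes were called in the Lats2 comparison, 588 genes were called in the Lats1 comparison, 2 members were called in the Lats1 comparison, 16 genes were called in the difference between the changes and 111 gene was called between carcinomas and adenomas. In a fit of all 14 libraries, 2 genes were called in the Lats2 comparison, 1 gene was called in the Lats1 comparison and the log2 difference changed sign in the Lats1 comparison for Notch3 0.000424. After a filter on low counts, the log2 difference changed sign in the Lats2 comparison for Notch1 -0.011 and Notch4 -0.0224 and 7 genes were called in the Lats1 comparison. With histology as a covariate, the log2 difference changed sign in the Lats2 comparison for Notch1 -0.28, Notch4 -0.42, Jag2 -0.13 and Hes1 -0.14. With the endothelial covariate, the log2 difference changed sign in the Lats2 comparison for Notch1 -0.0917, the log2 difference changed sign in the Lats1 comparison for Hey1 -0.91 and the log2 difference changed sign in the difference between the changes for Jag1 -0.0743. Without WT tumor 14 and Lats2-CKO tumor 7, a choice made after seeing the data, the log2 difference changed sign in the Lats2 comparison for Notch1 -0.0914 and Notch2 0.19. Without WT tumor 22 and Lats1-CKO tumor 21, also chosen after seeing the data, the log2 difference changed sign in the Lats1 comparison for Notch3 0.000416 and Notch4 -0.0854. In the 6 WT-PyMT tumors, the log2 difference changed sign between carcinomas and adenomas for Dll4 -0.27. Leaving out 1 tumor at a time in the Lats2 comparison gave Notch1 -0.24 to 0.28, Notch2 -0.26 to 0.0673, Notch4 -0.27 to 0.23, genes called 0 to 57 and Jag1 -0.32 to 0.89. Leaving out 1 tumor at a time in the Lats1 comparison gave genes called 0 to 19, Notch3 -0.22 to 0.0967, Dll4 -0.0854 to 0.40, Hey1 -0.14 to 0.48 and Notch4 -0.0653 to 0.31. Leaving out 1 tumor at a time in the difference between the changes gave Hey1 -0.84 to 0.0841, Notch2 -0.26 to 0.0767, genes called 1 to 5 and Notch4 -0.0605 to 0.48. Leaving out 1 tumor at a time between carcinomas and adenomas gave Jag2 -0.35 to 0.60, Notch2 -0.13 to 0.20 and Jag1 -1.02 to 0.0965. With the endothelial list, r changed sign for Notch3 (0.0265, within the Lats1 experiment), Dll1 (0.0291, within the Lats2 experiment), Dll4 (-0.16, within the Lats1 experiment) and Hes1 (0.00681, without the 2 tumors farthest from the median). In the Lats2 comparison 57 genes were called without WT tumor 1, and in the Lats1 comparison 19 without Lats1-CKO tumor 21, but 0 without WT tumor 17 or 20. No paired analysis was possible because the sample labels do not say which tumors came from the same litter. With 3 or 4 tumors a group, a difference of the size seen for Dll1 did not pass adjustment in edgeR.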
